A study of Mus musculus with 9 samples.

Results

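Stellate cell and fibroblast markers were read in liver RNA as 10 genes: Pdgfra, Pdgfrb, Des, Reln, Dcn, Lum, Rgs5, Lhx2, Hand2 and Colec11. They were chosen by gene symbol, as genes known to mark hepatic stellate cells and related fibroblasts, out of 54532 Ensembl gene IDs in the count table. All 10 were found, 1 ID each, and all 10 passed the filter on low counts that left 14763 genes for testing. RNA was sequenced from 9 livers, 3 in each of 3 groups, from C57BL/6 mice labelled as male and ApoE-/- in every group, the normal diet group included, though 3 libraries went against one of these labels. The normal diet group (replicates 4, 5 and 6) had no high-fat diet. The HFD + PBS group (replicates 3, 4 and 6) and the HFD + IgG1 group (replicates 5, 6 and 7) ate a high-fat diet, in which fat gave 41% of the calories, for 20 weeks from 4 weeks of age and then chow for 1 week. They were then injected into the peritoneum at 25, 26 and 27 weeks of age with PBS or with 3 mg of recombinant human IgG1, and killed at 29 weeks. What this IgG1 binds is not named in the labels, and the treatment label of replicates 6 and 7 of that group reads IgG2 and IgG3, while their titles place them with replicate 5. For the normal diet group the labels state neither injections nor the age at death, so diet, age and injection cannot be told apart in comparisons with it. Below, "after the diet" is short for HFD + PBS against normal diet, and "after IgG1" for HFD + IgG1 against HFD + PBS. Neither phrase names a cause. The livers sequenced were picked by Oil Red O staining and triglyceride values.

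Hepatic stellate cells lie between the sinusoidal endothelium and the hepatocytes, store retinoids in the healthy liver, and become matrix-producing myofibroblasts in injury. PDGF signalling through PDGFR-beta is a known driver of their proliferation and migration, while PDGFR-alpha also marks fibroblasts of the portal tract. Desmin and reelin are long-used markers of the lineage in rodents, Lhx2 and Hand2 are transcription factors of the lineage, and decorin and lumican are matrix proteoglycans with leucine-rich repeats.

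The library totals ran from 16215194 to 18538463 counts. Of these libraries 3 went against their labels: that labelled HFD + IgG1 replicate 5 had 235888 counts of Apoe, the deleted gene, against 225 to 1655 in each of the other 8, and those labelled normal diet replicate 5 and HFD + PBS replicate 6 had 17065 and 10970 counts of Xist and 0 counts, which allows up to 3, over 4 Y-linked genes. The counts and medians of the markers are also given without these 3 libraries. The summed level of 8 hepatocyte markers, of which 7 were found in the table, stood at 129800 and 165100 CPM (counts scaled to a common library size with TMM factors) in HFD + IgG1 replicates 7 and 5. It stood at 51660 CPM in HFD + PBS replicate 3 and at 71700 to 90040 CPM in the other 6 libraries. Its part in the results was not tested. In RNA of whole liver, fewer cells of a type and less RNA per cell cannot be told apart.

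No marker passed edgeR's test in any of the 3 comparisons, and neither did any other gene (0 of 14763, 0%). At an unadjusted p under 0.05 edgeR listed 3076, 3569 and 1040 genes for HFD + PBS against normal diet, HFD + IgG1 against HFD + PBS and HFD + IgG1 against normal diet, and DESeq2 called 1184, 1265 and 111 after adjustment. The summed level of the 10 genes was 537.7 to 782.4 CPM in normal diet, 702.8 to 875.8 in HFD + PBS and 451.2 to 729.8 in HFD + IgG1. HFD + PBS held the highest group mean for 7 of the 10 genes, and HFD + IgG1 the lowest group mean for all 10. Pdgfra, Dcn, Lum, Rgs5 and Hand2 had the widest differences between group means, whereas those of Reln, Lhx2 and Colec11 were at most 0.25 on the log2 scale. Which genes form these subsets was read from their values, so the subsets are a description and carry no test.

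Promoters are shown for 5 genes. Of these, 3 had wider differences between group means (Pdgfra, Rgs5 and Hand2) and 2 had narrower ones (Colec11 and Reln). None of the 5 passed the test, and they were picked after their values were seen. The sequences are from RefSeq on GRCm38.p6, 5′ to 3′, ending before the annotated transcription start, with E-box letters CANNTG in capitals. The run of Colec11 is shorter because it stops where the annotated gene begins, and the run of Rgs5 holds no such letters.
Pdgfra (chr5:75152001-75152250, + strand): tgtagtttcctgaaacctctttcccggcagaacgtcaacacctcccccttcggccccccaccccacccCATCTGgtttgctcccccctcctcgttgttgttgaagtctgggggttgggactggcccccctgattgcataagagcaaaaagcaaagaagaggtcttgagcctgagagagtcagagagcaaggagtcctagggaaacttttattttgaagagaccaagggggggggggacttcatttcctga
Rgs5 (chr1:169655251-169655500, + strand): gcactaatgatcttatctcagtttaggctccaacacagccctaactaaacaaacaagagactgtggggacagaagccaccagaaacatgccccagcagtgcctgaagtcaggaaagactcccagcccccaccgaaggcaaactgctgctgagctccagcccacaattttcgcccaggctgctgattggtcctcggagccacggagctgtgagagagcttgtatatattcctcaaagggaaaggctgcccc
Hand2 (chr8:57320733-57320982, + strand): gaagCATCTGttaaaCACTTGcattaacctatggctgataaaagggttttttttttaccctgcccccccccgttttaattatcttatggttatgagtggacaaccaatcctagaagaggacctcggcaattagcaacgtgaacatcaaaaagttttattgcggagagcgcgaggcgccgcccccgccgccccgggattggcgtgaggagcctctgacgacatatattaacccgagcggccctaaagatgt
Colec11 (chr12:28623378-28623580, - strand): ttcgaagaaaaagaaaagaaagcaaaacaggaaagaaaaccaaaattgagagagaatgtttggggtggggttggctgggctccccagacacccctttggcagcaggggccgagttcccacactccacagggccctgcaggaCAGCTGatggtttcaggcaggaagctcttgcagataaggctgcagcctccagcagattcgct
Reln (chr5:22344706-22344955, - strand): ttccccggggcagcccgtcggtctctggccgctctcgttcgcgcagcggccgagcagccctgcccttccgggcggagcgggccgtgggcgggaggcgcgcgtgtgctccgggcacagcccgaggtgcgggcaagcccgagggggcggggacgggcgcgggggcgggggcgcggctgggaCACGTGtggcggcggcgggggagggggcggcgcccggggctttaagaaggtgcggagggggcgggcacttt
From the RefSeq promoter table, 7 of the 10 genes were searched for motifs, among them Lhx2 with a pair of starts. Dcn and Lum have no entry there, and Pdgfrb was left out of the search, so nothing is said of its promoter. In windows of 250 bases before to 50 after the start, CANNTG was found on at least 1 start of all 7 and in 72.3% of all 32851 promoters of the table. CATCTG, the E-box form bound by HAND factors, which every CANNTG count includes, was found at Pdgfra (first base at -182), Hand2 (-246) and the second start of Lhx2 (25), and in 17.2% of all promoters. The homeodomain core TAATTA was found only at Hand2 among the 7 (-175, 5.3% of all promoters), and TATAAA at none of them (13.6%). Both strands were searched. GC content of the windows was 80.7% at Reln, 74.7% and 69.3% at Lhx2 and 65.3% at Des. It was 54% at Colec11, 52.3% at Rgs5, 51% at Pdgfra and 50.3% at Hand2. The GC content of all promoters was not taken.

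Per kilobase of exon the order of the levels was Dcn, Colec11, Rgs5, Lum, Reln, Pdgfrb, Pdgfra, Hand2, Des and Lhx2. The means over 9 libraries were 52.1 ± 14.3 CPM per kilobase for Dcn (SD, n = 9), 31.5 ± 3.18 for Colec11 and 25.5 ± 8.06 for Rgs5, and then 8.25 ± 4.85 for Lum, 4.83 ± 0.901 for Reln and 3.72 ± 1.20 for Pdgfrb. At the low end stood Pdgfra at 2.32 ± 1.01, Hand2 at 2.09 ± 0.677, Des at 1.83 ± 0.442 and Lhx2 at 1.24 ± 0.197. The lengths are unions of all annotated exons (10024 bases for Pdgfra, 23738 for Reln), which lowers the value of a gene with many transcript forms. Dcn was above Colec11, Rgs5 above Lum and Des above Lhx2 in 9 of 9 libraries. Colec11 was above Rgs5, Reln above Pdgfrb and Pdgfrb above Pdgfra in 8 of 9, and Lum above Reln in 7 of 9. Pdgfra was above Hand2, and Hand2 above Des, in 6 of 9 libraries, and the ranges over the 9 libraries overlapped for every pair of neighbours in the order.

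**Figure D1:**
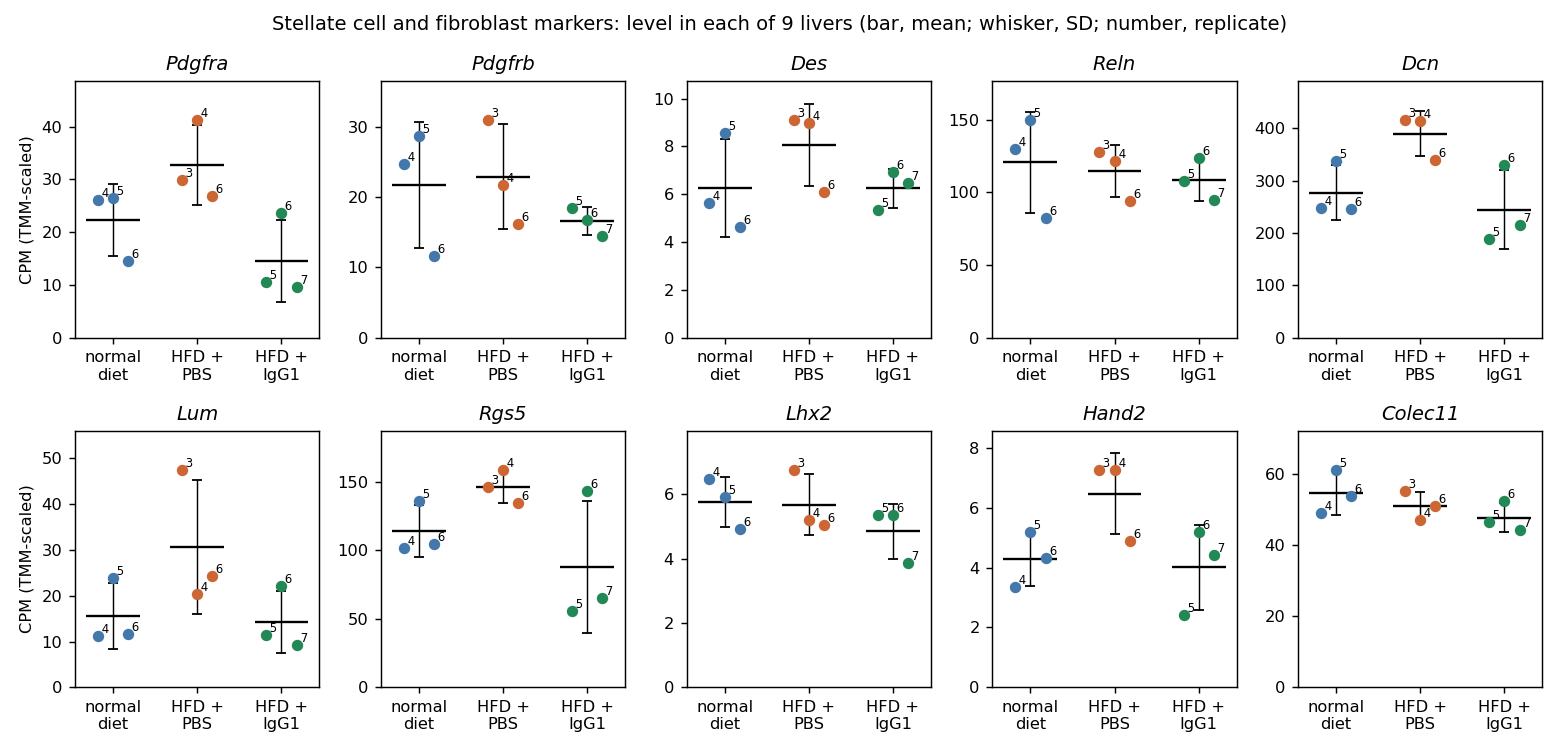
Level of each marker in each of the 9 livers (vertical axes from 0, CPM scaled by TMM factors; points, libraries numbered by replicate; bars, group mean; whiskers, SD, n = 3). HFD + IgG1 replicate 6 is the highest of its group for Pdgfra, Dcn, Lum and Rgs5, with Rgs5 at 143 CPM against 56.0 and 64.9 in the other two.

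Of the PDGF receptors, Pdgfra (ENSMUSG00000029231, chromosome 5, 75152292 to 75198215, mm10), which marks both stellate cells and portal fibroblasts, had 26.0, 26.5 and 14.5 CPM in normal diet replicates 4, 5 and 6. It had 30.0, 41.2 and 26.8 CPM in HFD + PBS replicates 3, 4 and 6, and 10.5, 23.6 and 9.66 CPM in HFD + IgG1 replicates 5, 6 and 7. All HFD + PBS libraries lay above all normal diet and all HFD + IgG1 libraries, though replicate 6 of HFD + PBS exceeded normal diet replicate 5 by very little. The log2 fold change was 0.55 (SE 0.37, edgeR adjusted p = 0.426) for HFD + PBS against normal diet. For HFD + IgG1 against HFD + PBS it was -1.16 (SE 0.37, edgeR adjusted p = 0.141, unadjusted p = 0.012, 95% interval -2.00 to -0.32). For HFD + IgG1 against normal diet it was -0.61 (SE 0.37, edgeR adjusted p = 0.757).

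Pdgfrb (ENSMUSG00000024620, chromosome 18, 61045150 to 61085061), the main PDGF receptor of stellate cells, had 24.7, 28.7 and 11.6 CPM in normal diet, 30.9, 21.7 and 16.1 in HFD + PBS, and 18.5, 16.7 and 14.5 in HFD + IgG1, in the same order of replicates. The 3 groups overlapped. Its log2 fold changes were 0.08 (SE 0.33), -0.47 (SE 0.33) and -0.39 (SE 0.33) in the 3 comparisons, and edgeR's adjusted p was 0.917, 0.403 and 0.817. The ratio of Pdgfra to Pdgfrb counts within a library does not depend on scaling between libraries. It was 1.05, 0.926 and 1.25 in normal diet, 0.97, 1.9 and 1.67 in HFD + PBS, and 0.568, 1.41 and 0.667 in HFD + IgG1. The lowest 2 of the 9 ratios were those of HFD + IgG1 replicates 5 and 7, while replicate 6 stood within the HFD + PBS range.

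Among the proteoglycans, Dcn, which binds collagen fibrils and TGF-beta, was the most abundant marker. Dcn (ENSMUSG00000019929, chromosome 10, 97479609 to 97518143) had 248, 337 and 246 CPM in normal diet, 416, 415 and 340 in HFD + PBS, and 188, 331 and 216 in HFD + IgG1. All HFD + PBS libraries were the highest, by a narrow margin of 340 against 337 and 331 CPM. Its log2 fold change was 0.49 (SE 0.24, edgeR adjusted p = 0.267) for HFD + PBS against normal diet, -0.67 (SE 0.24, edgeR adjusted p = 0.151, unadjusted p = 0.0181) for HFD + IgG1 against HFD + PBS, and -0.18 (SE 0.24, edgeR adjusted p = 0.877) for HFD + IgG1 against normal diet. Lum (ENSMUSG00000036446, chromosome 10, 97565128 to 97572703), which shapes collagen fibrils, is the next annotated gene after Dcn, 46984 bases on, with 0 genes annotated wholly between them. It had 11.2, 23.9 and 11.7 CPM in normal diet, 47.5, 20.4 and 24.2 in HFD + PBS, and 11.3, 22.1 and 9.36 in HFD + IgG1.

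Lum had the widest spread of the 10, with its highest library 5.07 times its lowest, and HFD + PBS replicate 3 stood far above the rest. The log2 fold changes were 0.97 (SE 0.45, edgeR adjusted p = 0.258), -1.10 (SE 0.45, edgeR adjusted p = 0.187) and -0.13 (SE 0.45, edgeR adjusted p = 0.96). Without HFD + PBS replicate 3 the first 2 were 0.54 and -0.66. The ratio of Lum to Dcn counts was 0.0433 to 0.0713 in 8 libraries and 0.114 in HFD + PBS replicate 3. Of 9 other small leucine-rich proteoglycans, 6 were tested, with 3 above and 3 below 0 both after the diet (median -0.07) and after IgG1 (median -0.07). Bgn, biglycan, had a log2 fold change of -0.62 (SE 0.25) after IgG1, Podn, podocan, one of -0.58 (SE 0.32), and Fmod, fibromodulin, one of -0.91 (SE 0.33) for HFD + PBS against normal diet. None of these passed the test.

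Rgs5, a GTPase activator of G-protein signalling that marks pericytes and stellate cells (ENSMUSG00000026678, chromosome 1, 169655501 to 169695813), had 102, 136 and 104 CPM in normal diet and 146, 158 and 135 in HFD + PBS. In HFD + IgG1 it had 56.0, 143 and 64.9 CPM in replicates 5, 6 and 7. Replicates 5 and 7 were the lowest of all 9 libraries, and replicate 6 lay among those of HFD + PBS. The log2 fold change was 0.36 (SE 0.32, edgeR adjusted p = 0.542) after the diet and -0.73 (SE 0.32, edgeR adjusted p = 0.2, unadjusted p = 0.0458) after IgG1, and -0.37 (SE 0.32, edgeR adjusted p = 0.817) for HFD + IgG1 against normal diet.

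Of the transcription factors, Hand2, a basic helix-loop-helix factor (ENSMUSG00000038193, chromosome 8, 57320983 to 57324633), had 3.36, 5.18 and 4.32 CPM in normal diet, 7.24, 7.26 and 4.90 in HFD + PBS, and 2.43, 5.18 and 4.41 in HFD + IgG1. HFD + PBS replicates 3 and 4 were above all other libraries, and replicate 6 of that group was below normal diet replicate 5. The log2 fold changes were 0.59 (SE 0.32, edgeR adjusted p = 0.321), -0.68 (SE 0.32, edgeR adjusted p = 0.226) and -0.09 (SE 0.33, edgeR adjusted p = 0.96). The divergent transcript Hand2os1 lies on the opposite strand and shares 461 exon bases with Hand2. It had 30 to 120 counts against 34 to 164 of Hand2, and since the sources do not say whether counting used the strand, part of either count may belong to the other. The other markers share exon bases only with genes of at most 1 count in any library.

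Lhx2, a LIM-homeodomain factor that holds stellate cells in the quiescent state (ENSMUSG00000000247, chromosome 2, 38339281 to 38369733), had 6.47, 5.90 and 4.92 CPM in normal diet, 6.76, 5.20 and 5.05 in HFD + PBS, and 5.35, 5.34 and 3.86 in HFD + IgG1. The groups overlapped in all comparisons. The log2 fold changes were -0.02, -0.23 and -0.25, with SE 0.24 each and edgeR adjusted p of 0.972, 0.581 and 0.831. The first had a 95% interval of -0.56 to 0.52 and was 0.01, 0.03 and 0.17 with RLE factors, upper-quartile factors and library totals, so no direction is given for it. The ratio of Hand2 to Lhx2 counts was 0.519, 0.877 and 0.878 in normal diet, 1.07, 1.4 and 0.969 in HFD + PBS, and 0.453, 0.97 and 1.14 in HFD + IgG1. HFD + PBS lay above normal diet in this ratio, by a margin of 0.969 against 0.878, and overlapped HFD + IgG1. The 0.969 is that of HFD + PBS replicate 6, one of the libraries against their labels. The ratio carries no test, and no share over other pairs of genes was taken.

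Reln, a large secreted glycoprotein (ENSMUSG00000042453, chromosome 5, 21884454 to 22344702), had 130, 150 and 82.4 CPM in normal diet, 128, 122 and 94.3 in HFD + PBS, and 107, 124 and 94.6 in HFD + IgG1. The 3 groups overlapped, with normal diet holding both the lowest and the highest library. The log2 fold changes were -0.07, -0.08 and -0.15 (SE 0.23 each), with edgeR adjusted p of 0.89, 0.849 and 0.893 and 95% intervals of -0.58 to 0.43, -0.58 to 0.43 and -0.66 to 0.35. The reelin receptors were low and 2 of 3 list genes were tested. Lrp8 was at 0.291 CPM in HFD + IgG1 and 2.19 in HFD + PBS, Vldlr at 5.77 and 2.01, with log2 fold changes of -2.82 (SE 1.15) and 1.53 (SE 0.62) that did not pass the test.

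Colec11, collectin-11 or CL-K1, a soluble lectin of the complement system (ENSMUSG00000036655, chromosome 12, 28594173 to 28623377), was the steadiest marker, with its highest library 1.38 times its lowest. It had 49.0, 61.1 and 53.6 CPM in normal diet, 55.0, 47.1 and 50.9 in HFD + PBS, and 46.4, 52.3 and 44.3 in HFD + IgG1. The log2 fold changes were -0.10, -0.10 and -0.20 (SE 0.14 each), with edgeR adjusted p of 0.726, 0.682 and 0.784. The 95% intervals, -0.41 to 0.21, -0.41 to 0.21 and -0.51 to 0.11, were the narrowest among the markers. In the 6-gene list of the lectin complement pathway, all tested, 3 were above and 3 below 0 after IgG1 (median 0.15), and 2 above and 4 below after the diet (median -0.05). Mbl1, a mannose-binding lectin, was at 270 CPM in normal diet and 178 in HFD + PBS, and the log2 difference of -0.60 (SE 0.14) had an edgeR adjusted p of 0.0865. Masp2, a protease of the pathway, differed by 0.58 (SE 0.20) and Fcna, ficolin A, by -0.81 (SE 0.46) between HFD + IgG1 and HFD + PBS, neither past the test.

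Des, desmin, is an intermediate filament protein of stellate cells and of all muscle (ENSMUSG00000026208, chromosome 1, 75360329 to 75368579). It had 5.62, 8.57 and 4.62 CPM in normal diet, 9.10, 8.98 and 6.09 in HFD + PBS, and 5.35, 6.95 and 6.46 in HFD + IgG1. The groups overlapped, and the log2 fold changes were 0.36, -0.36 and -0.00 (SE 0.28 each), with edgeR adjusted p of 0.484, 0.433 and 0.998. The 13 skeletal muscle markers summed to 0.244 to 1.08 CPM in normal diet, 1.20 to 2.12 in HFD + PBS and 0.714 to 1.39 in HFD + IgG1. Of these 7 had 0 counts in all 9 libraries, Ckm and Myh4 among them, where 0 allows up to 3 counts per library, and only Mylpf passed the filter on low counts (log2 fold change 0.94, SE 0.59, after the diet). The 9 vascular smooth muscle markers, 6 of them tested, summed to 77.2 to 107 CPM in normal diet, 54.1 to 82.8 in HFD + PBS and 72.0 to 99.0 in HFD + IgG1, with medians of -0.16 and -0.23 after the diet and IgG1. By name these were Acta2 at 1.61 (SE 0.58, 3.20 against 1.04 CPM) and Mylk at -0.44 (SE 0.21) after the diet. Tagln was at -1.30 (SE 1.00, 0.240 against 0.604 CPM) for HFD + IgG1 against normal diet. After IgG1 Acta2 was at -1.59 (SE 0.58). None of them passed the test, and Acta2 and Tagln are also on the myofibroblast list. The part of the muscle markers in the Des values was not tested.

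**Figure D2:**
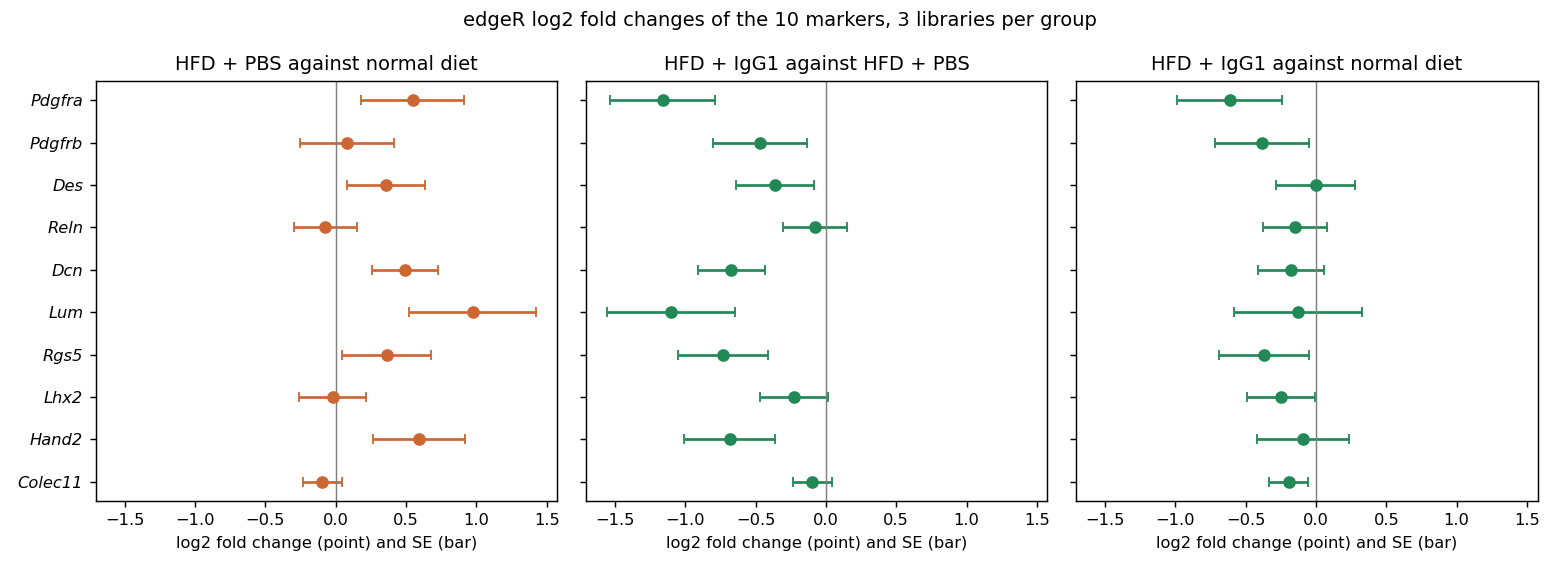
Log2 fold change (point) and SE (bar) of each marker from edgeR in the 3 comparisons, with a line at 0. All 10 points lie below 0 for HFD + IgG1 against HFD + PBS, from -1.16 for Pdgfra to -0.08 for Reln, and none passed the test.

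The first comparison was HFD + PBS against normal diet. As a list, 7 of 10 markers stood above 0 in it. The median log2 fold change of the 10 was 0.36, beside -0.00 for all tested genes. The markers not above 0 were Reln, Lhx2 and Colec11. At an unadjusted p under 0.05, 0 of 10 were higher or lower, where 20.8% of all genes were (9.41% higher and 11.4% lower). The groups did not overlap for Pdgfra and Dcn, 2 of 10, both higher, where 28.3% of all genes did not (13% higher and 15.3% lower). With those 3 doubtful libraries left out, all 10 stood above 0 at a median of 0.69, 4 of 10 had an unadjusted p under 0.05 and 0 of 10 were called, where 2245 of 14870 genes had such a p and 2 were called. The log2 fold change was then 0.84 for Pdgfra, 0.56 for Pdgfrb, 0.85 for Des, 0.78 for Dcn, 1.59 for Lum, 0.59 for Rgs5 and 0.95 for Hand2.

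The second comparison, of IgG1 with PBS under the same diet, put 10 of 10 below 0, with a median of -0.57 beside 0.04 for all genes. Pdgfra, Dcn, Lum and Rgs5, 4 of 10, had an unadjusted p under 0.05, where 24.2% of all genes did (12.6% higher and 11.6% lower). Pdgfra and Dcn, 2 of 10, did not overlap between the groups, where 26.5% of all genes did not (15.3% higher and 11.2% lower). On the same counts DESeq2 called Pdgfra (-1.19, adjusted p = 0.0342) and no other marker. One library set how many passed: without HFD + IgG1 replicate 6, edgeR called Pdgfra (-1.69, adjusted p = 0.00841), Dcn (-0.95, adjusted p = 0.0189) and Rgs5 (-1.27, adjusted p = 0.00473), alongside 2356 of all 15214 genes then tested. That replicate had hepatocyte and macrophage marker sums of 85200 and 2538 CPM, inside or near the HFD + PBS ranges of 51660 to 90040 and 2647 to 3099. In replicates 5 and 7 they were 165100 and 129800, and 768 and 1114 CPM. Their part in the result was not tested. Of the libraries behind those calls, HFD + IgG1 replicate 5 is the one with Apoe counts against its label. With the 3 doubtful libraries left out, which keeps replicate 6, 0 of 10 markers were called and 0 of 10 had an unadjusted p under 0.05, where 1249 of 14870 genes did. The median was then -0.61, with Pdgfra at -1.13 (edgeR adjusted p = 0.566), Pdgfrb at -0.79, Lhx2 at -0.41 and Reln at -0.23. Under the replicate number as a block the median was -0.41 and 0 of 10 were called.

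The third comparison, HFD + IgG1 against normal diet, put 10 of 10 below 0 at a median of -0.19, beside 0.00 for all genes. None of the 10 had an unadjusted p under 0.05, where 7.04% of all genes did (3.83% higher and 3.21% lower). All 10 overlapped between the groups, where 11.9% of all genes did not (5.54% higher and 6.41% lower). With the 3 doubtful libraries left out the median turned to 0.02, and Dcn (0.14), Lum (0.46), Hand2 (0.31), Des (0.38), Reln (0.03) and Rgs5 (0.01) stood above 0. The first comparison and the second share the HFD + PBS libraries, and so do their errors, so opposite signs in the 2 are not independent.

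**Figure D3:**
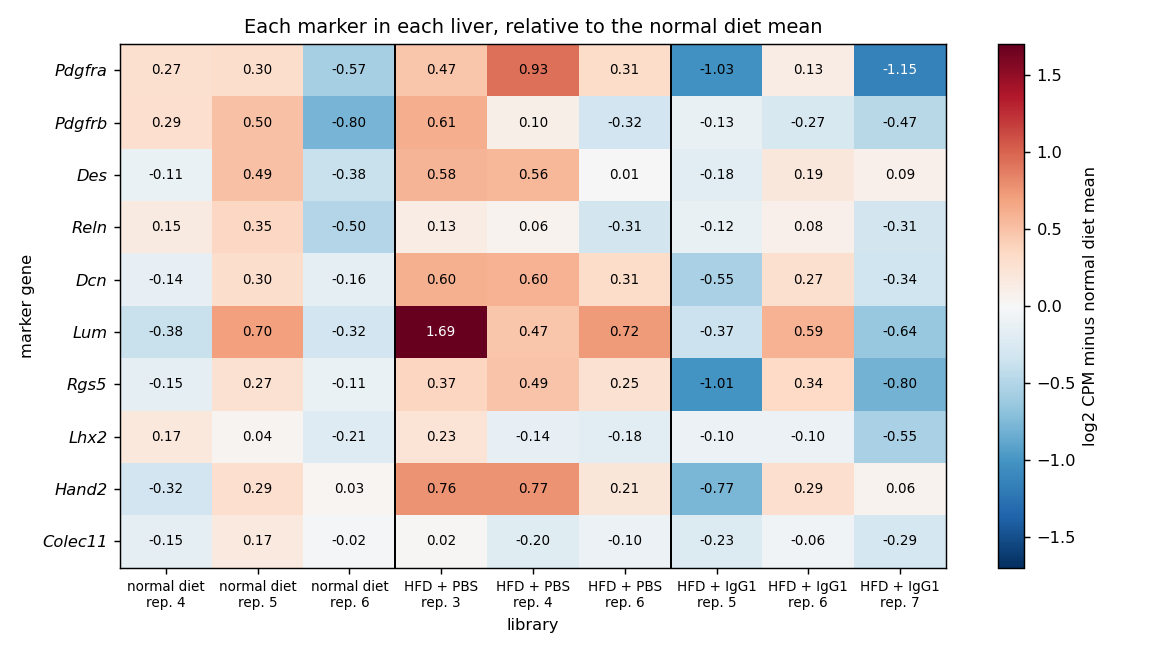
Log2 CPM of each marker (rows) in each library (columns) minus the normal diet mean of that marker, colour from blue (below) to red (above). All 10 markers are below 0 in HFD + IgG1 replicate 5 and 8 of 10 in replicate 7, while 7 of 10 are above 0 in replicate 6.

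Across single libraries, set against the normal diet mean, all 10 were above 0 in normal diet replicate 5 and HFD + PBS replicate 3, and 9 of 10 were below in normal diet replicate 6. The medians of the 10 were -0.13, 0.30 and -0.27 on the log2 scale in normal diet replicates 4, 5 and 6. They were 0.53, 0.48 and 0.11 in HFD + PBS replicates 3, 4 and 6, and -0.30, 0.16 and -0.41 in HFD + IgG1 replicates 5, 6 and 7. Normal diet livers alone thus spanned -0.27 to 0.30, and the 3 groups overlapped in this median. The 0.30 is that of normal diet replicate 5 and the 0.11 that of HFD + PBS replicate 6, both among the libraries against their labels. The other normal diet medians, -0.13 and -0.27, lay below all those of HFD + PBS.

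HFD + PBS lay apart from both other groups in the ratio of Dcn to Reln. The counts of Dcn to those of Reln stood at 1.92, 2.25 and 2.98 in normal diet, at 3.25, 3.4 and 3.6 in HFD + PBS, and at 1.75, 2.67 and 2.29 in HFD + IgG1. All HFD + PBS libraries lay above all others. This pair was picked after its values were seen, so it carries no test. Colec11 and Reln were 2 genes with narrow differences between group means. Their ratio was 0.378 to 0.651 in normal diet, 0.387 to 0.539 in HFD + PBS and 0.422 to 0.468 in HFD + IgG1. The groups overlapped in it.

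**Figure D4:**
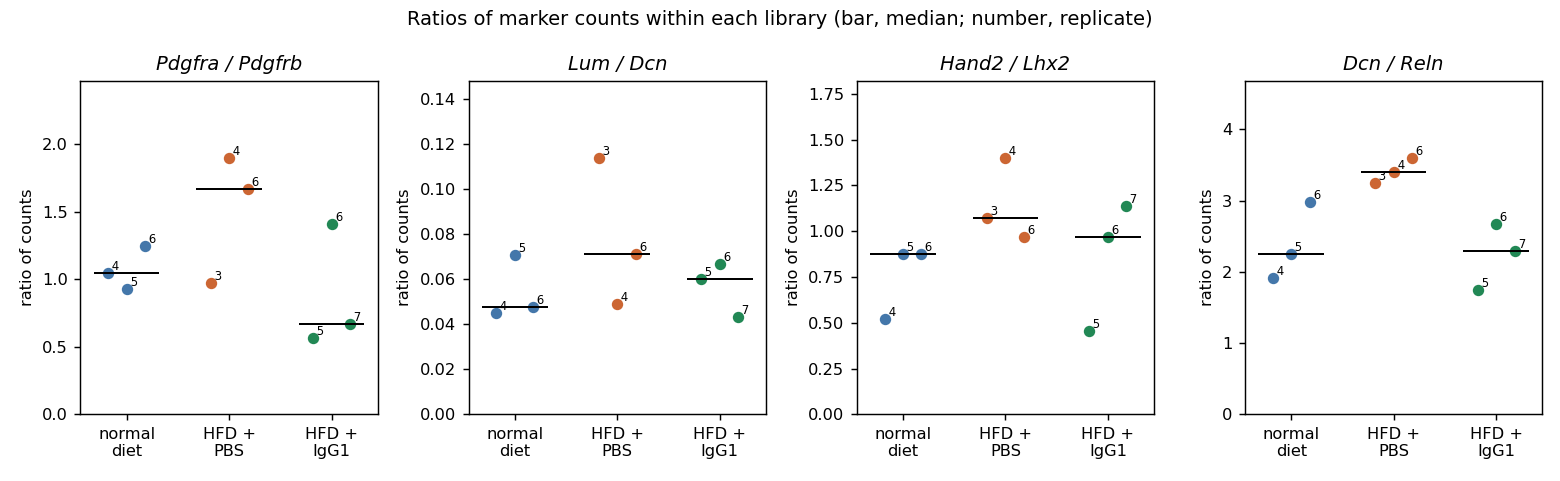
Ratio of the counts of 2 markers within each library (vertical axes from 0; points, libraries numbered by replicate; bars, group median). Dcn to Reln is the ratio in which HFD + PBS lies apart from both other groups, at 3.25 to 3.6 against at most 2.98.

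Other genes of the lineage gave a mixed picture. The further lists were chosen with earlier results of these data known, and were read only with all 9 libraries. Of 15 further genes of quiescent stellate cells, such as Lrat, which makes retinyl esters, 7 were above and 8 below 0 after the diet (median -0.03) and 4 above and 11 below after IgG1 (median -0.17). Lrat had 40.7 ± 14.8 CPM in normal diet, 33.7 ± 7.86 in HFD + PBS and 30.7 ± 6.03 in HFD + IgG1 (SD, n = 3 each). By the smallest p, Angptl6 had a log2 fold change of 0.51 (SE 0.17) and Adamtsl2, a matrix protein, one of -0.85 (SE 0.28) after IgG1, and Rspo3, a Wnt agonist, one of 0.51 (SE 0.18) after the diet. None passed the test.

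Myofibroblast genes, a list of matrix and contractile genes of activated stellate cells, had 13 of 16 above 0 after the diet (median 0.36). After IgG1, 15 of 16 were below 0 (median -1.03). Of these, 7 had an unadjusted edgeR p under 0.05, where 24.2% of all genes did (11.6% lower). The list holds Col1a1 and Col3a1, which within HFD + PBS were high in replicate 3 only, at 57.7 and 112 CPM. In replicates 4 and 6, Col1a1 was at 11.6 and 9.70 CPM and Col3a1 at 22.5 and 25.1. These values lay below all normal diet libraries. The calcium-binding S100a6 was at 3.09 CPM in HFD + IgG1 and 20.0 in HFD + PBS (-2.68 on the log2 scale, SE 0.62, edgeR adjusted p = 0.14), and vimentin, Vim, at 37.4 and 124 (-1.72, SE 0.49, edgeR adjusted p = 0.14). Both are also expressed by leukocytes. The matrix protein Postn was at 18.01 CPM in HFD + IgG1 against 12.3 in normal diet (0.55, SE 0.18, edgeR adjusted p = 0.601).

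Of 14 portal fibroblast genes, 11 were tested. All were above 0 after the diet (median 0.52) and all below 0 after IgG1 (median -0.88). After IgG1, 5 of 11 had an unadjusted edgeR p under 0.05, beside 11.6% of all genes lower at that p. This count includes HFD + IgG1 replicate 5 and was not made without the doubtful libraries. Cd34 was at 1.92 CPM in HFD + IgG1 and 5.98 in HFD + PBS (-1.63, SE 0.50), Dpt, dermatopontin, at 3.65 and 8.30 (-1.18, SE 0.38), and Pi16 at 0.914 in normal diet and 8.74 in HFD + PBS (3.25, SE 1.03). None passed. Of the PDGF and TGF-beta genes, 10 of 16 were above 0 after the diet (median 0.20) and 12 of 16 below after IgG1 (median -0.25). Smad3, which carries the TGF-beta signal, was at 0.69 (SE 0.23), the receptor Tgfbr2 at -0.64 (SE 0.21) and the ligand Tgfb1 at -0.91 (SE 0.34) after IgG1, none past the test.

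Markers of other liver cells also differed between the group means. Macrophage markers were above 0 in 8 of 8 after the diet (median 0.72) and below 0 in 8 of 8 after IgG1 (median -1.19), with C1qb, C1qa and C1qc at -1.30 (SE 0.36), -1.24 (SE 0.35) and -1.29 (SE 0.38). Cholangiocyte markers were above 0 in 6 of 6 after the diet (median 1.05) and below in 5 of 6 after IgG1 (median -1.18), among them Tspan8 at 2.21 (SE 0.43) and Spp1 at 1.67 (SE 0.35) after the diet and Krt7 at -1.42 (SE 0.39) after IgG1. Mesothelial markers were below 0 in 7 of 7 after IgG1 (median -0.93), with Wt1 at -1.87 (SE 0.68), Gpm6a at -1.003 (SE 0.37) and Lrrn4 at -0.89 (SE 0.38), and summed to 10.2 to 12.2 CPM in HFD + IgG1, 14.4 to 31.6 in HFD + PBS and 15.2 to 22.2 in normal diet. Endothelial markers were below 0 in 8 of 9 after IgG1 (median -0.37), with Lyve1 at -1.63 (SE 0.37), Pecam1 at -0.48 (SE 0.20) and Clec4g at -0.40 (SE 0.24). Hepatocyte markers were above 0 in 6 of 7 tested after IgG1 (median 0.55), with Ttr at 1.38 (SE 0.41), Serpina1c at 1.23 (SE 0.36) and Alb at 0.96 (SE 0.37). None of these genes passed edgeR's test, and the part of these shifts in the marker values was not tested.

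**Figure D5:**
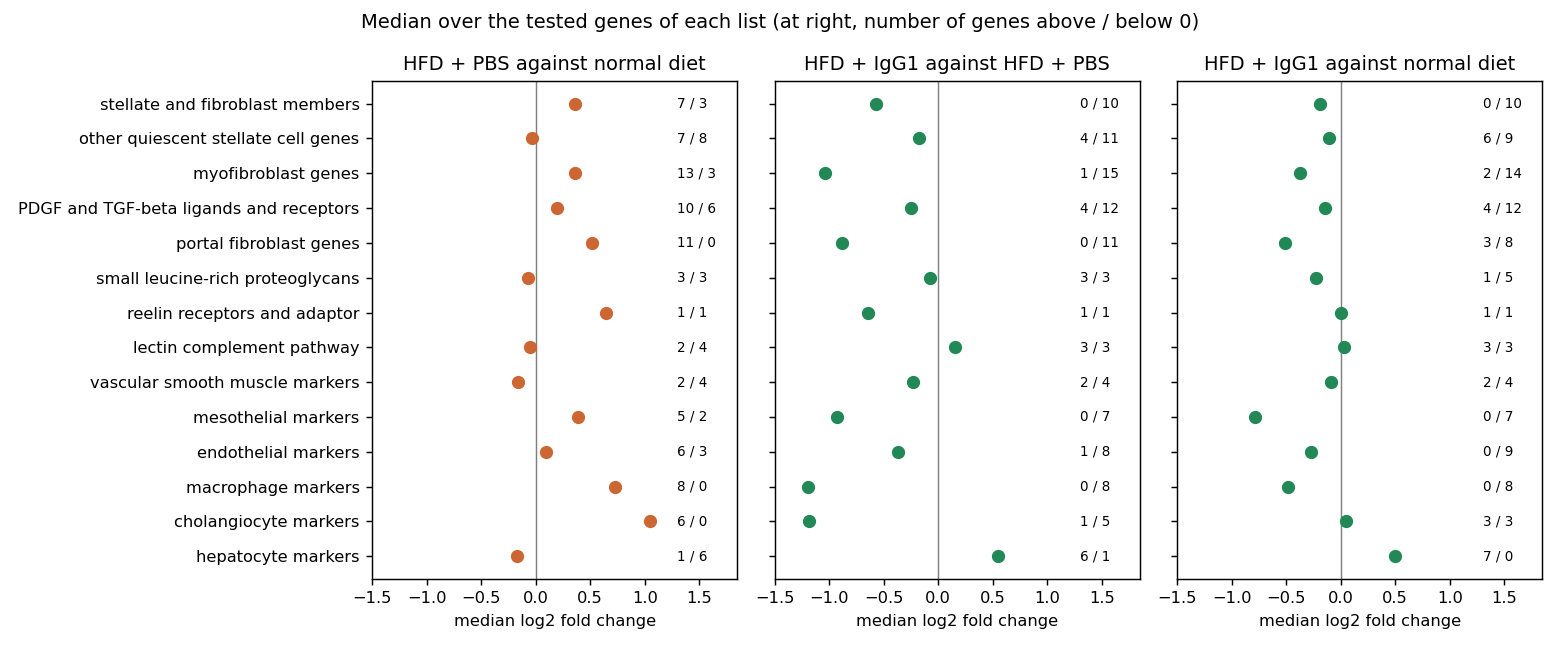
Median log2 fold change over the tested genes of each list in the 3 comparisons, with the number of genes above and below 0 at the right. For HFD + IgG1 against HFD + PBS the stellate and fibroblast markers stand at -0.57, between quiescent stellate cell genes at -0.17 and macrophage markers at -1.19; skeletal muscle, with 1 tested gene, is not drawn.

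Likeness was taken for the 3 markers with the highest mean CPM, not scaled by length. Of 13213 other genes with at least 1 CPM on average, those whose log2 CPM over the 9 libraries was most like that of Dcn were Fam217b (Pearson r 0.985), Ssbp4 (0.981) and Plbd1 (0.980). For Rgs5 they were Fmnl2 (0.990), Slc11a1 (0.986) and Adgre1 (0.985), the last being the macrophage antigen F4/80. By rank the likeness was looser for Adgre1, with Spearman's rho at 0.967, 0.95 and 0.8 for these genes in turn. For Reln they were Sptbn1 (0.936), Htt (0.935) and Gpx8 (0.931). These are the top values of that search, over libraries that share differences in cell makeup and scaling, and are given as a description without a test.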

How the data were processed

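The members and all gene lists were chosen with earlier results of these data known. The authors deposited raw counts, 1 row per Ensembl gene ID, with no normalisation. The submitters' processing notes name mm10 and Bowtie 0.12.2 without their role, and for the counting program, annotation and strand setting the sources used here say nothing. Symbols, positions and exon lengths came from GENCODE M21 (GRCm38, also called mm10), which named 54495 of 54532 IDs. Genes were kept by filterByExpr (minimum count 10, total 15), scaled by TMM, and fitted as 3 group means with edgeR 4.0.16 under R 4.3.3 (glmQLFit, robust; glmQLFTest, two-sided), and p-values were adjusted by Benjamini-Hochberg across 14763 genes (threshold 0.05). The common dispersion was 0.101. The SE is the unshrunk log2 fold change over the root of F. The 9 libraries are 9 mice, and intervals from the fit assume this spread. An exact test of 3 against 3 cannot go below 0.1, so none was made. Named genes were all 10 members, up to 3 of each further list with the smallest p, and 3 genes most like each of the 3 members with the highest mean CPM, not scaled by length. The shown promoters and subsets were chosen after values were seen. The workflow was tested on simulated counts. Of 100 genes changed 2-fold, edgeR called 21, 20 and 21 in the 3 comparisons, and of 100 changed 4-fold it called 67, 73 and 73. It also called 4, 9 and 4 unchanged genes. Most 2-fold changes thus went uncalled there, so a marker that did not pass is not shown to be unchanged. Alternatives were DESeq2 1.42.0, limma-voom (limma 3.58.1), other factors and filters, subsets of libraries and the replicate number as a block. Scaling by library totals was added after the data were seen.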

Additional observations from a re-analysis of the deposited data

How the results depend on the processing

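The medians of the 10 markers kept their sign in the first comparison (0.24 to 0.69) and the second (-0.81 to -0.41) under every alternative run. The effect of depth was not tested, and Hand2 and Lhx2 had as few as 34 and 64 counts. Genes called out of all tested, for HFD + PBS against normal diet, HFD + IgG1 against HFD + PBS and HFD + IgG1 against normal diet, were 0 by edgeR, 1184, 1265 and 111 by DESeq2 (1 marker, Pdgfra, in the second), and 274, 57 and 6 when genes of low count were kept. Fits to the 6 libraries of each comparison called 184, 0 and 3, and without the 3 doubtful libraries 2, 0 and 0. Leaving out 1 library at a time gave 0 to 576, 0 to 2356 and 0 to 6 genes, and 0 to 3 markers in the second comparison, the highest values all without HFD + IgG1 replicate 6. Without HFD + PBS replicate 6, 14 and 4 genes were called in the first comparison and the last. The cause was not tested.

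Signs turned for values near 0. For HFD + PBS against normal diet, Lhx2 was 0.007 by DESeq2, 0.005 with RLE factors, 0.034 with upper-quartile factors, 0.175 with library totals, 0.022 with at least 1 CPM in 3 libraries and 0.099 without the 3 doubtful libraries. Reln was 0.108 and Colec11 0.093 with library totals, and 0.261 and 0.023 without the 3 libraries. For HFD + IgG1 against normal diet, Des was 0.041 by limma-voom, 0.003 with at least 1 CPM and 0.376 without the 3 libraries, where Reln was 0.029, Dcn 0.137, Lum 0.456, Rgs5 0.013, Hand2 0.311 and the median 0.021. Leaving out 1 library at a time, the first comparison ran from -0.223 to 0.335 for Pdgfrb, -0.287 to 0.112 for Reln and -0.142 to 0.103 for Lhx2, and the last from -0.179 to 0.292 for Des, -0.36 to 0.037 for Reln, -0.593 to 0.321 for Lum and -0.318 to 0.152 for Hand2. Library totals, added after the data were seen, moved the median of all genes to 0.17, -0.20 and -0.05, and the share of higher genes among those with an unadjusted p under 0.05 from 45.2%, 52.2% and 54.4% to 71%, 19.5% and 40.4%. With upper-quartile factors the second share was 40.7%.

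With the replicate number as a block, 0 genes were called and the medians were 0.30, -0.41 and -0.11. Pdgfrb was -0.014 in the first comparison, Reln 0.148 and Lhx2 0.111 in the second, and Des 0.053 and Reln 0.056 in the last. Deviations of same-numbered libraries from their group means correlated at 0.007, -0.239, -0.009, -0.494 and -0.028 across genes. Those of differently numbered libraries ran from -0.347 to 0.425. Deviations from a mean of 3 libraries depend on each other, so these values do not settle whether the numbers pair the livers.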

Other observations

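Of the fibrillar collagens made by activated stellate cells, Col1a1 had 16.2, 32.3 and 12.8 CPM in normal diet replicates 4, 5 and 6, 57.7, 11.6 and 9.70 in HFD + PBS replicates 3, 4 and 6, and 5.85, 10.4 and 6.28 in HFD + IgG1 replicates 5, 6 and 7. Col3a1 had 41.7, 84.9 and 35.7 CPM in normal diet, 112 in HFD + PBS replicate 3 against 22.5 and 25.1 in replicates 4 and 6, and 29.4, 32.7 and 32.6 in HFD + IgG1. HFD + PBS replicate 3 was the highest of the 9 libraries for both collagens, as it was for the markers Dcn, Lum, Pdgfrb, Des and Lhx2. For both collagens the other libraries of its group were below the normal diet range. The collagens were picked after their values were seen and carry no test.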
